A study of Homo sapiens with 2 samples.

Results

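The S100 genes described here are 10 members of a family of small calcium-binding proteins, S100A2, S100A3, S100A4, S100A6, S100A10, S100A11, S100A13, S100A14, S100A16 and S100P. They were found by gene symbol in the FPKM tables of the series, joined by gene identifier, and all 10 had a value in both libraries, out of 18786 symbols that did. The series compared cells of the established lung adenocarcinoma line A549 that had been stably transduced with a retrovirus carrying ATOH8 (1 library) with A549 cells stably transduced with the retroviral vector alone (1 library). ATOH8 is a transcription factor of the basic helix-loop-helix class. Both groups therefore went through retroviral transduction. Whether each line was a clone or a pool, and which promoter drove the transgene, is not given in the sources used here. With only 1 library per group, every difference below compares these libraries, has no replicate error and has no p-value.

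S100 proteins usually act as dimers, and each subunit carries a pair of EF-hand loops. In most members, calcium binding exposes a surface that grips a target protein, often an annexin, a cytoskeletal protein or a co-chaperone, and some members are also released from cells and bind the receptor RAGE. In epithelial tissue S100 proteins are known for roles in membrane repair, cell motility and keratinocyte differentiation, and several are used as markers in lung and other carcinomas. Most of the genes sit in a cluster on chromosome 1, among genes of the epidermal differentiation complex.

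As this class of factor binds E-boxes (CANNTG, read on both strands, since the word is its own reverse complement), the promoters of 3 members on chromosome 1 are shown first, 1 without and 2 with this word. The sequences are RefSeq promoter windows (GRCh38.p14), which run from 250 bases before to 50 bases after a start site. They are printed from the window's 5′ end up to the first base that GENCODE 29 annotates as exon, with E-boxes in capitals. The 3 were picked after the values were seen, other windows of S100A2 and S100A16 are not shown, and no relation between E-boxes and the differences was tested. The 3 stretches, all on the minus strand, are chr1:153565866-153566094 (S100A2), chr1:152037036-152037254 (S100A11) and chr1:153613146-153613387 (S100A16).
S100A2: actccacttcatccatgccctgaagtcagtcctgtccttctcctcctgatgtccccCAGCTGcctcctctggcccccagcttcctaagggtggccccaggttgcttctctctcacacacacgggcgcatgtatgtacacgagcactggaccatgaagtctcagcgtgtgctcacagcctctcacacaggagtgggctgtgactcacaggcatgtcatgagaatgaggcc
S100A11: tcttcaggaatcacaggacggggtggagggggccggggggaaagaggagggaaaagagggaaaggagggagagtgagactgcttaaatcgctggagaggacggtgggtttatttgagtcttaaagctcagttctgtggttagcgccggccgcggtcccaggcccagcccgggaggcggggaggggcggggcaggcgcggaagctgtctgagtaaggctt
S100A16: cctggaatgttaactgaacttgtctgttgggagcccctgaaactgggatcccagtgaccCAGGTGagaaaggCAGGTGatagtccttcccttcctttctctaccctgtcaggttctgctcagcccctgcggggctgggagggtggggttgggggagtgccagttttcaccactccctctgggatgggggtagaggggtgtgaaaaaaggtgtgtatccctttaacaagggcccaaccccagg

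All 10 members matched a RefSeq promoter, with 14 windows between them. CANNTG stood in at least 1 window of 7 of the 10 members, against 73.1% of all 27305 genes with a window. The windows without it were those of S100A3, S100A10 and S100A11 and 1 of the windows of S100A13. The word CAGCTG was found in 1 of the 14 windows, that of S100A2 shown above, against 17.9% of all 35116 windows. These are matches of letters, and no binding was measured here.

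The labels were checked on the transduced gene and on marker genes. ATOH8 was at 182 FPKM in the ATOH8 library and 0.786 FPKM in the vector library. Of 10 markers of A549 cells, 9 were above 1 FPKM in both libraries, with KRT8 (2302 FPKM in the ATOH8 and 2381 FPKM in the vector library) and AKR1B10 (2355 FPKM in the ATOH8 and 2938 FPKM in the vector library) among them. KRT19, another keratin on that list, was at 0.0700 FPKM in the ATOH8 and 0.219 FPKM in the vector library. The summed level of 8 myeloid markers was 24.7 FPKM in the ATOH8 and 3.45 FPKM in the vector library. It came mostly from CD68 and CD14, while PTPRC was at 0.0111 FPKM in the ATOH8 library and unlisted in the vector library, and S100A8, S100A12 and FCGR3A were listed in neither. The 7 fibroblast markers summed to 13.04 FPKM in the ATOH8 and 2.92 FPKM in the vector library, mostly from COL1A1. The 4 melanocyte or glia markers summed to 2.42 FPKM in the ATOH8 and 0.351 FPKM in the vector library, mostly from PMEL, with S100B and SOX10 listed in neither. The 5 alveolar surfactant markers summed to 0.714 FPKM in the ATOH8 and 0.254 FPKM in the vector library, and the 4 endothelial markers to 0.0820 FPKM in the ATOH8 library, with none listed in the vector library. Over genes that averaged 5 FPKM or more, the median log2 fold of ATOH8 over vector on the log2(FPKM + 1) scale was -0.36. Log2 folds below are relative to this median gene unless stated otherwise. The pseudocount of 1 pulls the log2 fold of low genes towards 0 before this median is subtracted. On the relative scale, low genes that hardly differ or are lower in the ATOH8 library can therefore stand above 0.

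A549 cells of both libraries held abundant S100 mRNA. Per length, that is on the FPKM scale, S100A4, S100A10, S100A6 and S100A11 were the 4 most abundant members in both libraries, none of them below the 302 FPKM of S100A11 in the vector library. Together they made up 91.9% of the summed FPKM of the 10 genes in the ATOH8 library, against 90.4% in the vector library. The sum of the 10 genes was 2401 FPKM in the ATOH8 library and 2018 FPKM in the vector library, a ratio of 1.19. As a share of all FPKM this was 0.478% in the ATOH8 and 0.374% in the vector library, and without mitochondrially encoded genes it was 0.630% in the ATOH8 and 0.447% in the vector library. In bulk RNA, a change in the share of cells that express a gene and a change in mRNA per cell cannot be told apart.

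S100A4 headed the order of levels in both libraries, at rank 95 of 18786 symbols in the ATOH8 and rank 126 in the vector library. In the ATOH8 library it was followed by S100A10, S100A6 and S100A11, whereas in the vector library S100A6 came before S100A10. S100A16 came next in both, then S100A3 and S100A13, then S100P and S100A2, and S100A14 last. S100A3 and S100A13 also stood in opposite order in the libraries. With 1 library per group, neighbours in this order cannot be told apart beyond a spread.

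**Figure D1:**
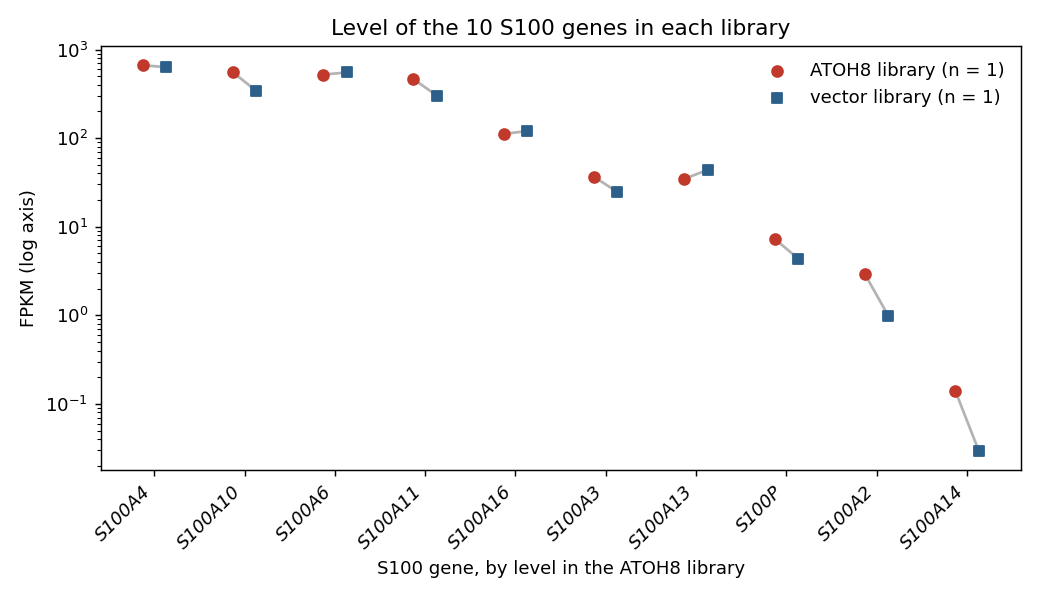
FPKM (log axis) of the 10 S100 genes, with the ATOH8 library as red circles and the vector library as blue squares, 1 library each, ordered by level in the ATOH8 library. S100A4 stands at 665 FPKM in the ATOH8 and 631 FPKM in the vector library, S100A14 at 0.141 FPKM in the ATOH8 and 0.0297 FPKM in the vector library, and S100A10 and S100A11 stand above their vector level while S100A13 and S100A16 stand below it.

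The largest difference among the 9 members that averaged 1 FPKM or more over the libraries was that of S100A2, an S100 protein of basal cells of stratified epithelia and a gene known to respond to p53 family factors. It was listed at 2.91 FPKM in the ATOH8 library and 0.982 FPKM in the vector library, a ratio of 2.96, and its log2 fold was 1.34. S100A2 was a low gene in both libraries, at rank 9334 in the ATOH8 and 12255 in the vector library. It passed the filter on low values only through its level in the ATOH8 library, as it was below 1 FPKM in the vector library.

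S100A10 encodes the light chain of the annexin A2 heterotetramer, which helps to assemble plasminogen and its activator at the cell surface. Unlike other S100 proteins it keeps its open shape without calcium. S100A10 was at 556 FPKM in the ATOH8 library and 340.2 FPKM in the vector library, with a log2 fold of 1.06. Its share of the S100 sum was 23.1% in the ATOH8 and 16.9% in the vector library. S100A11, which binds annexin A1 and takes part in membrane repair, was at 464 FPKM in the ATOH8 and 302 FPKM in the vector library, with a log2 fold of 0.98. S100A10 and S100A11 lie next to each other, and the ratio of their levels was 1.20 in the ATOH8 library, against 1.13 in the vector library.

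S100P, first described in placenta and a ligand of RAGE and of ezrin, was at 7.30 FPKM in the ATOH8 library and 4.37 FPKM in the vector library (log2 fold 0.99). It is the only one of the 10 genes outside chromosome 1, on chromosome 4. S100A3, a cysteine-rich protein of the hair cuticle, was at 36.7 FPKM in the ATOH8 and 24.5 FPKM in the vector library (log2 fold 0.92).

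The other 4 members above that filter stood closer to the median gene. S100A4, which binds the heavy chain of non-muscle myosin IIA and is known for its part in motility and metastasis, was at 665 FPKM in the ATOH8 library and 631 FPKM in the vector library (0.43). S100A6, also called calcyclin, was at 522 FPKM in the ATOH8 and 551 FPKM in the vector library (0.28). S100A16, a widely expressed member, was at 112 FPKM in the ATOH8 and 120.2 FPKM in the vector library (0.25). S100A13, which takes part in the export of FGF1 and interleukin-1 alpha, was at 34.7 FPKM in the ATOH8 and 43.9 FPKM in the vector library (0.03). On the deposited FPKM scale S100A6, S100A13 and S100A16 were lower in the ATOH8 library and S100A4 higher, so the sign for these 3 depended on the centring.

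S100A14, an epithelial member that can pair with S100A16, was very low, at 0.141 FPKM in the ATOH8 library and 0.0297 FPKM in the vector library. It did not pass the filter, and its log2 fold of 0.51 rests on very low values.

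By the rule of size, 2 of the 9 members that passed the filter, S100A2 and S100A10, stood 2-fold or more above the median gene, and 0 stood as far below it. S100A2 passed the filter only through its level in the ATOH8 library, where it was higher. With a filter at a mean of 5 FPKM, which left out S100A2, the count above was 1 of 8 members. For that filter no share of all genes is given, so this count cannot be set against all genes. S100A14, which did not pass, was past 2-fold in neither direction on this scale. Of all 12342 genes that passed the filter at a mean of 1 FPKM, 12.8% lay as far above the median gene and 9.46% as far below it. The median log2 fold was 0.92 over the 9 members kept and 0.06 over all genes kept, and it was 0.72 over all 10 members. The 0.92 includes S100A2. With the filter at 5 FPKM, which left it out, the median was 0.68 over 8 members, where that of all genes is 0 by construction. S100P, S100A11 and S100A3 lay just under the 2-fold line. Without centring, 0 members were past the 2-fold line in either direction, beside 6.24% of all genes higher and 19.0% lower. S100A2 was then at 0.98 and S100A10 at 0.71. This scale, log2(FPKM + 1) without centring, is what is called the FPKM as deposited below. It still holds the pseudocount. On the plain ratio of FPKM, S100A2 (1.57) and S100A14 (2.25) were past 2-fold. Relative to the median gene, the members kept formed an upper group of 5 members, between 0.92 and 1.34, and a lower group of 4, between 0.03 and 0.43, with none in between, a division made after the values were seen.

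**Figure D2:**
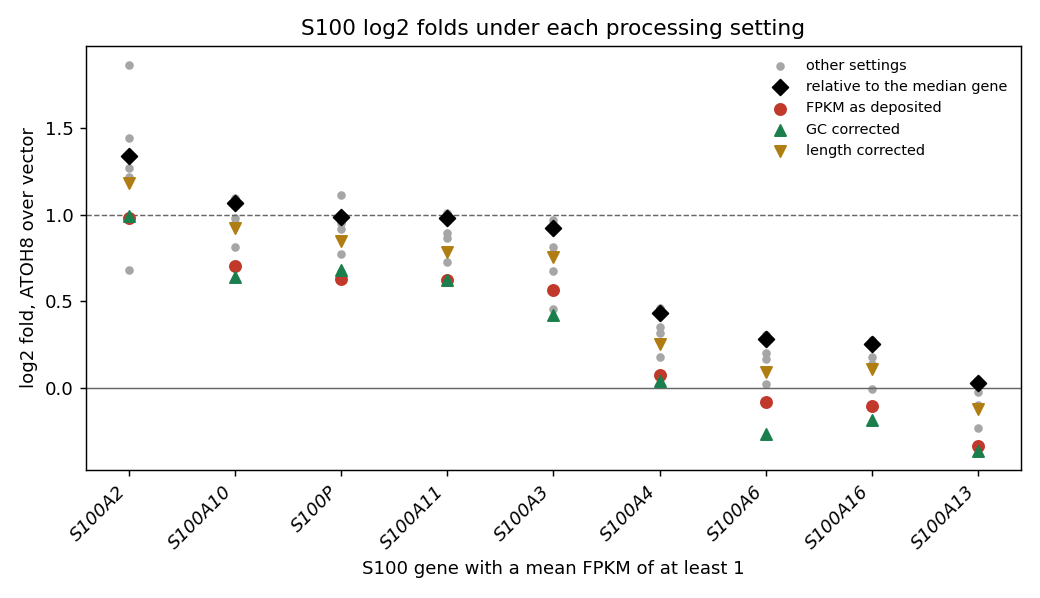
Log2 fold (ATOH8 over vector) of the 9 S100 genes that passed the filter under each processing setting, with the value relative to the median gene as a black diamond and the dashed line at 2-fold. S100A2, S100A10, S100P, S100A11 and S100A3 stay above 0 in every setting drawn, whereas S100A6, S100A13 and S100A16 fall on both sides of 0.

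The authors' deposited table of 2747 genes, 827 marked up and 1920 marked down, listed 0 of the 10 members. Of the 12342 genes kept here, 5.16% were marked up and 14.7% down in it. The lowest absolute log2 ratio of FPKM among the genes of the authors' deposited table was 1.00. On that scale, which has no pseudocount, 2 members were past it, S100A2 at 1.57 and S100A14 at 2.25. Both ratios rest on low values, 0.982 FPKM for S100A2 and 0.0297 FPKM for S100A14 in the vector library. For this scale no share of all genes is given, so the count cannot be set against all genes.

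Ratios within a library do not depend on the scaling of the library. S100A10 stood at 1.06 times the level of S100A6 in the ATOH8 library, against 0.618 times in the vector library, so the ratio was 1.72 times higher in the ATOH8 library. The ratio of S100A11 to S100A6 was 0.890 in the ATOH8 and 0.548 in the vector library. The ratio of S100A10 to S100A4 was 0.835 in the ATOH8 and 0.539 in the vector library. These ratios show unequal change within the family, not which gene moved.

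Base composition moved with the folds. Among all genes with a transcript sequence, the median log2 fold was -0.70 in the decile of lowest and 0.63 in that of the highest GC content, taken from the longest GENCODE 29 transcript. The S100 transcripts lay between 52.8% (S100P) and 60.2% (S100A6) GC, and the 2765 genes kept within that range had a median of 0.42. Of the 9 S100 genes kept, 6 stood above that median, which by definition has as many genes above it as below. S100A4 was above it only narrowly, at 0.434 against 0.424. After a lowess correction on GC content 0 members were past 2-fold in either direction, beside 8.33% of all genes above and 5.94% below. S100A2 was then at 0.99, S100P at 0.68, S100A10 at 0.64, S100A11 at 0.62 and S100A3 at 0.42. S100A4 was at 0.04, S100A16 at -0.18, S100A6 at -0.26 and S100A13 at -0.36 after the correction. The longest S100 transcripts ran from 594 bases (S100A11) to 2184 bases (S100A13), and the 3028 genes no longer than that had a median of 0.15. The part of base composition in the S100 values was not tested beyond this correction.

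**Figure D3:**
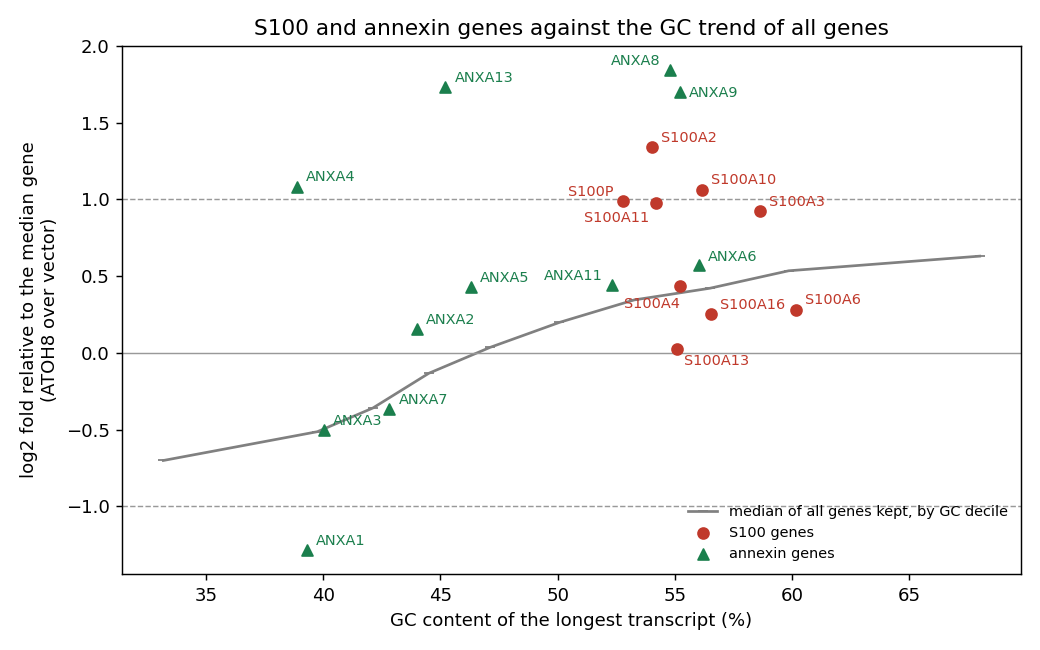
Log2 fold relative to the median gene against the GC content (%) of the longest transcript, with S100 genes as red circles, annexin genes as green triangles, the median of all genes kept in each GC decile as a grey line and dashed lines at 2-fold. S100A2, S100A10, S100A11, S100P and S100A3 lie above the line, S100A4 near it, and S100A6, S100A13 and S100A16 below it.

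Along chromosome 1 the difference between the libraries changed from gene to gene. S100A10 (GRCh38, chromosome 1, 151982915 to 151994390) and S100A11 (152032506 to 152047907), both on the minus strand, form 1 end of the family's stretch. The other 7 members there lie 1487 kb further on, within 97 kb, all on the minus strand. In that block S100A6 (0.28) and S100A4 (0.43) were followed by S100A3 (0.92), S100A2 (1.34), S100A16 (0.25) and S100A13 (0.03). The genes past S100A13 were set beside them. CHTOP, an mRNA export factor, stood at -0.24, and ILF2, a double-stranded RNA-binding protein gene, at -0.43. SNAPIN stood at 0.07, INTS3 at 0.04, SLC27A3 at 0.12 and GATAD2B at 0.95. SLC27A3 was a low gene, at 0.955 FPKM in the ATOH8 and 1.31 FPKM in the vector library, so the pseudocount bears on its sign. By the rule for neighbours, 7 genes were kept, of which 0 were past 2-fold in either direction, with a median of 0.04. Of all genes kept, 12.8% were past 2-fold above and 9.46% below. On the FPKM as deposited 0 of the 7 were higher and 1 lower, beside 6.24% of all genes higher and 19.0% lower. Their median was then -0.31. AL513523.2, 1 of the 7, had no position in GENCODE 29.

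Between the S100 genes lie those of the epidermal differentiation complex, which encode proteins of the cornified envelope and of keratin bundling. Of a list of 21 such genes 3 were listed in both libraries, FLG, HRNR and TCHH, and the highest level among them was 0.0425 FPKM. The others on the list lacked a value in at least 1 library. CRCT1, which is not on the list and also lies between the S100 genes, was at 0.130 FPKM in the ATOH8 and 0.0473 FPKM in the vector library.

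Several S100 genes share a locus in the deposited tables. S100A3 and S100A4 overlap on the same strand and share a locus string, so fragments could have been split between them. Their summed level was 702 FPKM in the ATOH8 and 656 FPKM in the vector library. S100A13 shares its locus string with 4 other genes, among them S100A1 and CHTOP on the opposite strand. As no source used here states the strand setting of the library, reads of such pairs cannot be told apart. S100A6 and S100A11 each share theirs with an antisense gene whose level was below 0.4 FPKM.

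**Figure D4:**
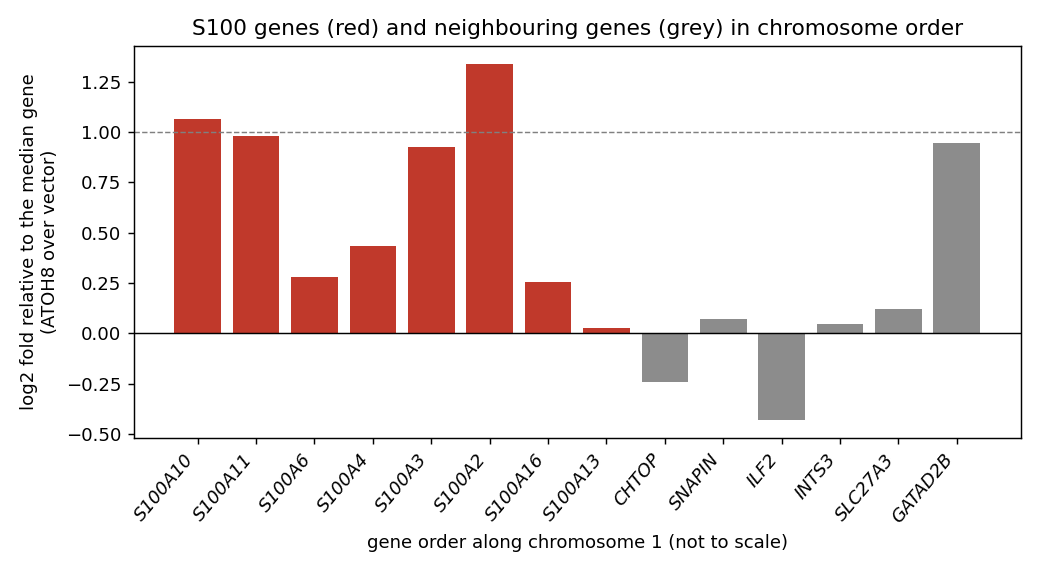
Log2 fold relative to the median gene for the S100 genes (red) and for 6 neighbouring genes (grey) that passed the filter, in their order along chromosome 1 and not to scale, with the dashed line at 2-fold. The tall bars of S100A3 and S100A2 stand between the short bars of S100A4 and S100A16, and ILF2 is the lowest at -0.43.

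The rest of the family was low or unlisted. S100A1 was at 0.380 FPKM in the ATOH8 and 0.364 FPKM in the vector library. S100A9, a subunit of calprotectin of neutrophils and monocytes, was at 0.130 FPKM in the ATOH8 and 0.134 FPKM in the vector library. S100A5 was listed in the ATOH8 library at 0.251 FPKM and not in the vector library, where absence cannot be read as 0. The remaining 7 of a list of 20 family genes, S100A7, S100A7A, S100A8, S100A12, S100B, S100G and S100Z, were listed in neither library.

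Annexins, calcium-dependent membrane-binding proteins, are the best known partners of S100 dimers. Of 12 annexin genes 11 were kept, 4 of them past 2-fold above the median gene and 1 past 2-fold below it, beside 12.8% of all genes above and 9.46% below, with a median log2 fold of 0.44. On the FPKM as deposited 3 annexins were past 2-fold higher and 1 lower, beside 6.24% and 19.0% of all genes, and the median was 0.08. ANXA2, the partner of S100A10, was the most abundant annexin at 1634 FPKM in the ATOH8 and 1882 FPKM in the vector library, with a log2 fold of 0.15. On the FPKM as deposited ANXA2 was at -0.20. The level of S100A10 was 0.340 times that of ANXA2 in the ATOH8 library, against 0.181 times in the vector library, a ratio 1.88 times higher in the ATOH8 library. This ratio is not corrected for GC content, which was 44.0% for ANXA2 and 56.2% for S100A10. After the GC correction the log2 folds lay closer together, at 0.34 for ANXA2 and 0.64 for S100A10.

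ANXA1, the partner of S100A11, went the other way, at 312 FPKM in the ATOH8 and 977 FPKM in the vector library (-1.29). The level of S100A11 was 1.49 times that of ANXA1 in the ATOH8 library, against 0.309 times in the vector library. This ratio is not corrected for GC content, which was 54.2% for S100A11. After the GC correction S100A11 was at 0.62. ANXA1 was AT-rich, with 39.3% GC, and stood at -0.72 after the GC correction, so it no longer was past 2-fold. The authors' deposited table marked ANXA1 down with a q-value of 0.0137.

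The annexins above 2-fold were ANXA8, ANXA13, ANXA9 and ANXA4. ANXA8 was at 14.8 FPKM in the ATOH8 and 4.66 FPKM in the vector library (1.84), though near-identical copies of this gene make its reads uncertain. ANXA13 was at 14.7 FPKM in the ATOH8 and 5.08 FPKM in the vector library (1.73). ANXA9, which also lies on chromosome 1, was at 5.24 FPKM in the ATOH8 and 1.46 FPKM in the vector library (1.70). ANXA4, known from secretory epithelia, was at 281 FPKM in the ATOH8 and 170 FPKM in the vector library (1.08). All 4 were past 2-fold after the GC correction as well, whereas on the FPKM as deposited ANXA4 was at 0.72 and within 2-fold. The authors' deposited table marked ANXA8 and ANXA13 up with q-values of 0.00131 and 0.00729.

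Other partners and receptors of S100 proteins were divided. Of 20 such genes, 4 annexins among them, 14 were kept, with 3 past 2-fold above, 3 past 2-fold below and a median of 0.14, beside 12.8% of all genes above and 9.46% below. On the FPKM as deposited 1 was higher and 4 were lower, with a median of -0.22, beside 6.24% of all genes higher and 19.0% lower. PLAU, the urokinase gene that activates plasminogen, was at 60.01 FPKM in the ATOH8 and 13.3 FPKM in the vector library (2.46). AHNAK, a scaffold bound by the S100A10 and annexin A2 complex, was at 51.4 FPKM in the ATOH8 and 28.3 FPKM in the vector library (1.20). BSG, a membrane receptor for S100A9, was at 508 FPKM in the ATOH8 and 286 FPKM in the vector library (1.18). BSG had 61.6% GC and stood at 0.61 after the GC correction, within 2-fold, while PLAU (2.11) and AHNAK (1.04) were past it. On the FPKM as deposited AHNAK was at 0.84 and BSG at 0.83, both within 2-fold.

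The co-chaperones bound by S100A6 stood lower. CACYBP, the calcyclin-binding protein, was at 26.9 FPKM in the ATOH8 and 99.6 FPKM in the vector library (-1.49). S100A6 was therefore at 19.4 times the level of CACYBP in the ATOH8 library and at 5.53 times in the vector library. This ratio is not corrected for GC content, which was 60.2% for S100A6 and 39.5% for CACYBP. After the GC correction their log2 folds lay closer together, at -0.26 for S100A6 and -0.94 for CACYBP. SUGT1 was at 7.34 FPKM in the ATOH8 and 31.5 FPKM in the vector library (-1.60). CACYBP and SUGT1 had 39.5% and 37.4% GC and both stood at -0.94 after the GC correction, within 2-fold. STIP1, another gene of the partner list, went the other way under this correction. It was at 86.9 FPKM in the ATOH8 and 197 FPKM in the vector library (-0.82), within 2-fold and so outside the rule of size. With 55.2% GC, STIP1 stood at -1.21 after the GC correction, past 2-fold. The authors' deposited table marked PLAU up with a q-value of 0.00171, and CACYBP and SUGT1 down with q-values of 0.000197 and 0.0129.

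MYH9, the myosin heavy chain bound by S100A4, was at 72.9 FPKM in the ATOH8 and 46.8 FPKM in the vector library (0.99). EZR, the ezrin gene and partner of S100P, was at 84.4 FPKM in the ATOH8 and 100.1 FPKM in the vector library (0.12). The receptor gene AGER, which encodes RAGE, was at 0.922 FPKM in the ATOH8 and 0.587 FPKM in the vector library, and TLR4 lacked a value in at least 1 library. MYH9, EZR and AGER, like the receptor gene TLR4, are outside the rule of size and were named as partners or receptors of the S100 proteins.

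**Figure D5:**
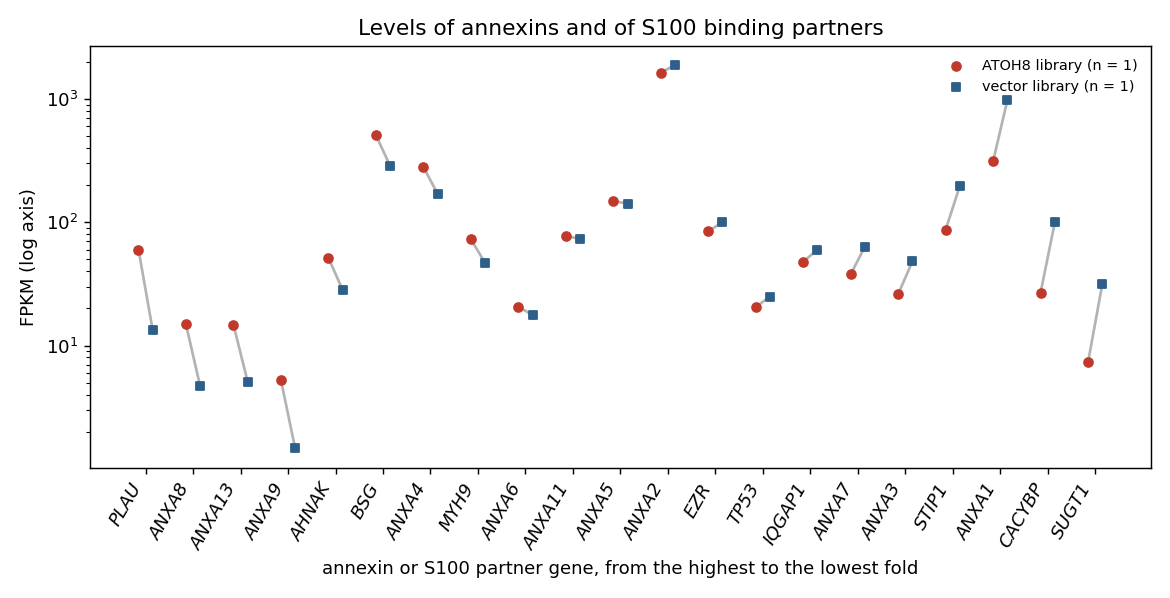
FPKM (log axis) of annexins and S100 binding partners that passed the filter, from the highest to the lowest log2 fold, with the ATOH8 library as red circles and the vector library as blue squares, 1 library each. PLAU, at the left, stands at 60.01 FPKM in the ATOH8 and 13.3 FPKM in the vector library, SUGT1, at the right, at 7.34 FPKM in the ATOH8 and 31.5 FPKM in the vector library, and ANXA2 is the most abundant gene in both.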

How the data were processed

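RNA was sequenced from 1 ATOH8 and 1 vector library of A549 cells, grouped by the treatment label. The submitters' processing notes name CASAVA, HISAT2, Cufflinks 2.2.1 and the build hg38 (GRCh38), with no role for each, and the annotation release is not given in the sources used here. For each library the authors deposited FPKM per gene, per the file headers, and these tables list no 0. Their deposited comparison gives p-values and q-values, per the file headers, which compare these 2 libraries and not the conditions; 2 columns of per-library values in it carry names of no labelled sample and were left aside.

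The tables were merged on the gene identifier, and FPKM of 1 symbol were added up. Folds were differences of log2(FPKM + 1), ATOH8 minus vector, relative to the median over genes averaging 5 FPKM or more. The filter kept genes averaging 1 FPKM or more. No test was run, and 2-fold served as the rule of size. GC content and length came from GENCODE 29, matched for 99.8% of genes kept, with lowess (fraction 0.3, statsmodels 0.14.6, Python 3.11.15). Gene positions are those of GENCODE 29. The procedure was tested on simulated data. Low FPKM of genes with 1 transcript were not whole multiples of 1 fragment (20.9% of ATOH8 and 21.7% of vector values lay within 0.1 of a whole number, where 20% is an even spread), so no counts were recovered, the depth is unknown and no counting interval could be given.

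The members and lists were chosen with earlier results of these data known. Named are all members, the other S100 genes, ATOH8, ANXA2 and, of each companion list, up to 6 members at least 2-fold from the median gene. Genes named outside that rule were chosen after their values were seen. No gene was named for a pattern like that of a member, since 2 libraries give 1 difference per gene. A gene that this rule names is not reported here.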

Additional observations from a re-analysis of the deposited data

How the results depend on the processing

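The count of S100 genes at least 2-fold higher, 2 as reported, was 4 with a pseudocount of 0.1 FPKM, 0 with one of 5 FPKM, 1 with a mean FPKM of at least 5, 0 without centring, 1 with TPM scaling, 1 when rescaled without mitochondrially encoded genes, 0 with the GC correction and 1 with the length correction. It was 3 with upper quartile scaling and 2 with no filter or with the highest row of a shared symbol. The count at least 2-fold lower was 0 in all 11 alternatives, and the median of the S100 genes kept, 0.92 over 9 genes, ranged from 0.42 to 0.97. S100A2, S100A3, S100A4, S100A10, S100A11 and S100P stayed above 0 in every alternative that kept them, while S100A13 was below 0 in 6 settings, S100A16 in 3 and S100A6 in 2. With S100A3 and S100A4 summed, an alternative chosen after seeing the data, the log2 fold was 0.46. Without centring, 6.24% of all genes lay past the 2-fold line on the upper side and 19.0% on the lower side. With the GC correction these shares were 8.33% and 5.94%. For the other alternatives no share of all genes is given. Their counts, here and in the next paragraph, therefore cannot be set against all genes.

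Annexins at least 2-fold higher numbered 2 with a pseudocount of 5, and 0 were lower with the GC correction. Of the binding partners 1 was higher without centring and 1 with TPM scaling, with medians of -0.22 and -0.12, and 1 was lower with the GC correction. Of the other EF-hand genes 2 were higher with a pseudocount of 5 and 2 with the GC correction, and 5 were lower without centring and 5 with TPM scaling. Their median was -0.23 without centring, -0.13 with TPM scaling and -0.0105 with the GC correction. Of the neighbouring genes 1 was higher and 1 lower with a pseudocount of 0.1, and 1 was lower without centring, 1 with TPM scaling and 1 when rescaled without mitochondrially encoded genes. Their median was -0.028 with a pseudocount of 0.1, -0.10 with a mean FPKM of at least 5, -0.31 without centring, -0.24 with TPM scaling, -0.0356 with upper quartile scaling, -0.15 when rescaled without mitochondrially encoded genes, -0.24 with the GC correction and -0.0099 with the length correction. Leaving out the centring alone moves every gene by the same amount by construction. Each rescaling multiplied a library by 1 factor before the same pseudocount was added, so by construction it moved low genes unlike high ones. Without mitochondrially encoded genes S100A2 stood at 1.44 and S100A10 at 0.95. The cause of the other shifts was not tested. No replicate could be left out and no paired analysis was possible because there was 1 library per group.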

Other observations

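Other EF-hand proteins, which bind calcium through the same kind of loop as S100 proteins, were measured beside them. Of 33 genes 26 were kept, with 4 past 2-fold above the median gene, 2 past 2-fold below it and a median of 0.13, beside 12.8% of all genes above and 9.46% below, so the shares are near those of all genes. EFHD1, a mitochondrial calcium-binding protein gene, was at 2.92 FPKM in the ATOH8 and 0.826 FPKM in the vector library (1.46). It passed the filter on low values only through its level in the ATOH8 library. NUCB1, a Golgi calcium-binding protein gene, was at 138 FPKM in the ATOH8 and 67.7 FPKM in the vector library (1.38). CHP1, a partner of sodium-proton exchangers, was at 107 FPKM in the ATOH8 and 52.6 FPKM in the vector library (1.38). CIB1, a calcium- and integrin-binding protein gene, was at 90.1 FPKM in the ATOH8 and 57.0 FPKM in the vector library (1.01). RCN2, a reticulocalbin of the endoplasmic reticulum, was at 25.9 FPKM in the ATOH8 and 72.3 FPKM in the vector library (-1.09). After the GC correction EFHD1 stood at 0.97, NUCB1 at 0.83, CIB1 at 0.54 and RCN2 at -0.64, all within 2-fold. CHP1 stood at 1.35 and was still past 2-fold.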
